A study of Homo sapiens with 24 samples.

Results

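LOUCY cells kept for 24 h in 500 nM I-BET151 were compared with LOUCY cells kept for 24 h in 0.05% DMSO, the solvent control. The comparison used every library labelled with either treatment, 4 per group and 8 of the 24 libraries in the series, and each group held 2 libraries from each of 2 experiments. LOUCY is a line of human T-cell acute lymphoblastic leukaemia that is used as a model of its early T-cell precursor form, in which T-cell genes are expressed together with genes of stem, progenitor and myeloid cells. The series, on Ezh2 and Runx1 mutations in thymic progenitors, also holds LOUCY treated with 250 nM JQ1 for 24 h (n = 4), untreated LOUCY (n = 6) and untreated cells of JURKAT, another T-cell leukaemia line (n = 6). All cells were grown in RPMI-1640 with 10% serum, and every LOUCY library came from the same line, so the results describe 1 cell line. Whether the 2 numbered replicates of an experiment came from different flasks is not given in the labels. Every p-value therefore rests on library-to-library spread, which may be technical in part.

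BET proteins, among them BRD2 and BRD3, bind acetylated histones through their bromodomains and help to recruit the elongation kinase P-TEFb to promoters and enhancers. I-BET151 is a quinoline-based dimethylisoxazole that occupies the bromodomain pocket and displaces BET proteins from chromatin. Genes with high BET protein occupancy at nearby enhancers, often lineage and growth genes, are known as the most sensitive to such compounds, while histone genes and HEXIM1, which encodes an inhibitor of P-TEFb, are known to rise.

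The 8 libraries held 4441060 to 7074198 reads in listed genes, with 15543 to 15706 of the 15862 genes above 0. RPKM scales the reads of a gene by its length and by a library size. It is relative, so it does not see the amount of RNA in a cell, and fewer cells of a type cannot be told apart from less RNA per cell. The ratio of that library size to the total of reads in listed genes varied between libraries. Relative to its mean over the series, the ratio was 0.8816 in I-BET151 replicate 1 of experiment 2 and 1.09 in I-BET151 replicate 2 of experiment 2. The T-lineage markers of the line were present in every library, with a summed level of 1570 to 2000 RPKM for 6 markers (CD7, CD3D, CD3E, CD3G, CD247 and LCK) under DMSO and of 812 to 1170 under I-BET151. Markers of erythroid, epithelial, stromal and endothelial cells summed to at most 1.37 RPKM in any of the 8 libraries. For each library, the deviation from the mean level of its own group was set against the GC content of genes. Such a slope is relative to the group, so a GC difference shared by all libraries of a group does not show in it. A set of 3 libraries of experiment 2 stood apart in this slope, given in log2 units per 10 percentage points. The values were -0.349 (I-BET151 replicate 1), -0.31 (DMSO replicate 1) and -0.248 (an untreated replicate 2). The other 21 libraries lay between -0.135 and 0.169. Replicate pairs of experiment 2 differed by more than those of experiment 1, with a chi-square per degree of freedom of 32.3 and 54.6 for DMSO and I-BET151 against 1.69 and 4.96.

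I-BET151 changed the level of 2999 of 11411 genes tested (26.3%), of which 1180 rose (10.3%) and 1819 fell (15.9%). The changes were fitted on the log2(RPKM + 1) scale with the experiment as a term (limma, Benjamini-Hochberg adjusted p under 0.05). All 18 LOUCY libraries entered the fit, so the JQ1 and untreated libraries also shaped the estimate of spread. The log2(RPKM + 1) scale understates the change of genes near or below 1 RPKM. A rise of at least 1 on this scale was called for 90 genes (0.789%) and a fall of at least 1 for 348 genes (3.05%). At a change of at least 2, 3 genes rose and 46 fell. The median change over all genes tested was 0.000406. In 2396 genes (21%) the 4 I-BET151 libraries did not overlap the 4 DMSO libraries. Of the 2999 called genes, 2998 had the same sign in both experiments. The calls were made from both experiments together, which favours equal signs, so this count is not a separate test. Fitted alone, experiment 1 gave 2787 calls and experiment 2 gave 456, of which 93 rose and 363 fell. The count was 3369 with the 3 libraries of steep GC slope left out. With only the 8 libraries compared in the fit, it was 1532, of which 518 rose and 1014 fell. In what follows, the counts of each gene list can be read against the 10.3% of all genes that rose and the 15.9% that fell. Of the called genes named in the text, 20 lost the call when 1 of the 8 libraries was left out, with adjusted p-values of at most 0.155. These were BAG3, BID, CCND3, CD4, ESPL1, HDAC9, HEXIM2, HLA-DQB1, HOTTIP, ITGAV, MED14, MRPL53, MRPS14, NCL, NPM1, PSPH, PTPRC, SLC2A3, TRIAP1 and UBE2C. Of these, BID, HDAC9, HLA-DQB1, HOTTIP, MRPL53, MRPS14, NPM1 and PSPH also lost the call when the replicate number was a block in the fit, with adjusted p-values of 0.0522 to 0.0677.

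**Figure D1:**
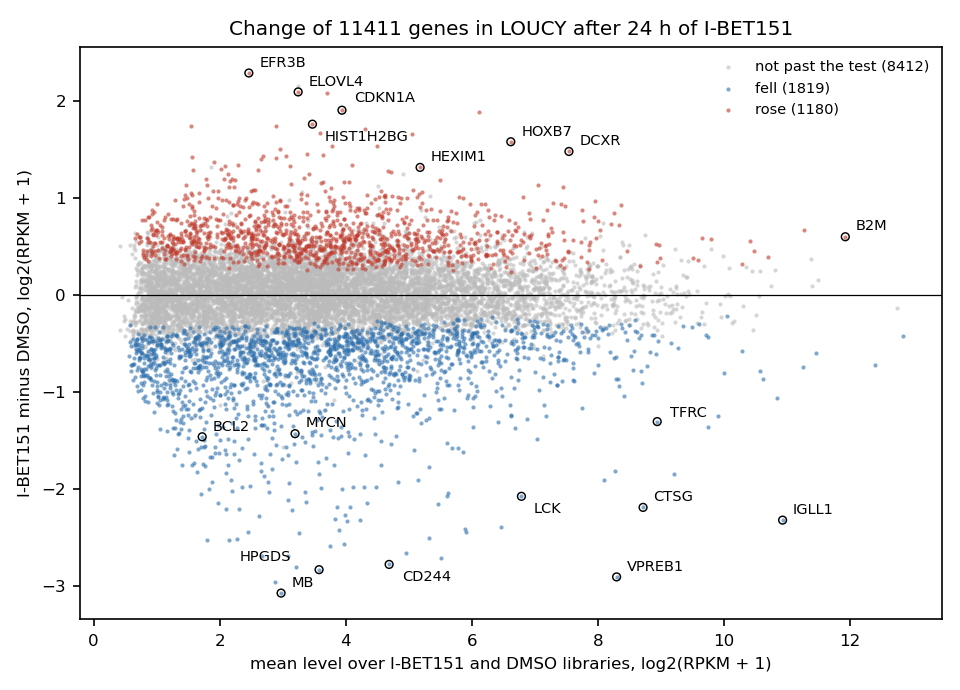
Change in expression after I-BET151 (vertical axis, I-BET151 minus DMSO in log2(RPKM + 1)) against the mean level of the 8 libraries (horizontal axis, log2(RPKM + 1)) for each gene tested, with red points for the 1180 genes that rose, blue for the 1819 that fell and grey for the rest. The falls reach further than the rises, and VPREB1, IGLL1 and CTSG lie far below 0 at high levels.

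The transcripts of the BET proteins BRD2 and BRD3 did not pass the test. BRD2 stood at 6.73 ± 0.946 RPKM under DMSO and 8.81 ± 0.641 under I-BET151 (mean ± SD, n = 4, as for all levels given in this way), a log2 difference of 0.35 (SE 0.13, adjusted p = 0.0605). With the GC trends removed BRD2 rose by 0.43 (adjusted p = 0.00292). It was also called after median ratio scaling, quantile normalization and limma voom (adjusted p = 0.0454, 0.0437 and 0.0398). With only the 8 libraries compared, or in either experiment alone, 0 of the BET genes were called. BRD3 stood at 38 ± 2.07 RPKM under DMSO and 38.6 ± 4.79 under I-BET151. The kinase of P-TEFb, CDK9, and its cyclin partner CCNT1 had log2 differences of -0.21 (SE 0.15) and 0.08 (SE 0.20), neither past the test. Among 25 genes of P-TEFb, its inhibitors and elongation factors, 2 rose and 3 fell.

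HEXIM1, which holds P-TEFb in an inactive complex, was the clearest of these (chromosome 17, 45148502 to 45152101, GRCh38). Its level was 19.9, 18, 22.8 and 18.2 RPKM in the 4 DMSO libraries (experiment 1 first, as in all lists of 4 values) and 43.6, 48.9, 60.5 and 50.4 RPKM in the 4 I-BET151 libraries. Every I-BET151 library lay above every DMSO library. The log2 change was 1.32 (SE 0.11, adjusted p = 1.15e-07), with 1.24 in experiment 1 and 1.4 in experiment 2. Its paralogue HEXIM2 fell (log2 change -0.69, SE 0.21, adjusted p = 0.0242), although its libraries overlapped, at 4.09 to 7.74 RPKM under DMSO and 2.1 to 4.13 under I-BET151. ELL2, an elongation factor of the super elongation complex, rose by 0.73 (SE 0.20) and its relative ELL3 fell by 0.66 (SE 0.12). The rise of ELL2 was 0.46 without I-BET151 replicate 1 of experiment 2 (adjusted p = 0.0373).

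Most genes known to rise under BET inhibition rose. Of 14 tested, 10 rose, none fell and 4 did not pass the test, with a median log2 change of 1.13. The list includes histone genes, among them HIST1H2BG, HIST1H2BD and HIST2H2BE, which are counted again with the histone genes below. CDKN1A, the cell cycle inhibitor p21, went from 4.27, 6.84, 4.41 and 6.37 RPKM under DMSO to 25.5, 21.9, 17.6 and 28 RPKM under I-BET151. SERTAD1, a regulator of CDK4 and E2F activity, went from 12.2, 7.08, 6.56 and 7.28 to 25.6, 27.3, 25.9 and 38 RPKM. In both genes the lowest treated library exceeded the highest control library. The log2 changes were 1.91 (SE 0.32, adjusted p = 2.36e-04) and 1.72 (SE 0.20, adjusted p = 3.26e-06). ZCCHC24, a zinc finger gene used as a marker of BET inhibition, rose by 1.42 (SE 0.12), from 3.05 to 9.77 RPKM. SERPINI1, a serine protease inhibitor, rose by 0.79 (SE 0.19). TXNIP, an inhibitor of thioredoxin, was the member with the lowest value, at 70.2 ± 4.58 RPKM under DMSO and 58.7 ± 1.12 under I-BET151, and did not pass the test (adjusted p = 0.0814).

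Of 49 histone genes tested, 16 rose and 3 fell, with a median log2 change of 0.39. Most histone messages end in a stem-loop and lack a poly(A) tail, so libraries primed on poly(A) see mainly their polyadenylated forms. The rises included several H2B genes. HIST1H2BG went from 4.61, 6.11, 3.02 and 2.52 RPKM under DMSO to 17.7, 14.1, 10.5 and 22.3 RPKM under I-BET151, HIST1H2BD from 5.76 ± 1.49 to 17.1 ± 1.98, and HIST2H2BE from 6.61 ± 0.169 to 16.2 ± 2.92. The log2 changes were 1.76 (SE 0.23), 1.45 (SE 0.22) and 1.16 (SE 0.12). The falls included H2AFY and H2AFY2, which encode the macroH2A variants of silent chromatin. H2AFY went from 461, 481, 427 and 473 RPKM to 229, 243, 214 and 208 RPKM, with no overlap and a log2 change of -1.04 (SE 0.09, adjusted p = 1.48e-07), and H2AFY2 fell by 0.73 (SE 0.17). Near-identical histone copies can share reads, so the values of single H2B genes are uncertain.

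The promoters of 3 histone genes named above are shown as examples, picked because their core letters differ (RefSeq, GRCh38.p14, 250 bases before to 50 bases after the start, read on the gene's strand). Capitals mark the TATA box letters TATAAA and the CCAAT box letters CCAAT, each searched on both strands, so that the reverse forms TTTATA and ATTGG are also in capitals.
HIST1H2BD, chr6:26157871-26158170, plus strand: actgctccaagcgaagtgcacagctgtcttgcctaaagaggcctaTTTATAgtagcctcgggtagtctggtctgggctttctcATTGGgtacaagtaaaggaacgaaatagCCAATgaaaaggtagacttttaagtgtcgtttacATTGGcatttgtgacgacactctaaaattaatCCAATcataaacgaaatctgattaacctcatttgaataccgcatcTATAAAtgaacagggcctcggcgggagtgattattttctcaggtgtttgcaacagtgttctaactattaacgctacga
HIST2H2BE, chr1:149886633-149886932, minus strand: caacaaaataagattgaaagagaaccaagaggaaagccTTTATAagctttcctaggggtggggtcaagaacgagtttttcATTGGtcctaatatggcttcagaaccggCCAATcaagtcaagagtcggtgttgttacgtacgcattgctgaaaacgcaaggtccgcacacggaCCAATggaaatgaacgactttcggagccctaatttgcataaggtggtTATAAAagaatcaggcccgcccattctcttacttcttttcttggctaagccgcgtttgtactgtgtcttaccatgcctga
H2AFY, chr5:135399182-135399481, minus strand: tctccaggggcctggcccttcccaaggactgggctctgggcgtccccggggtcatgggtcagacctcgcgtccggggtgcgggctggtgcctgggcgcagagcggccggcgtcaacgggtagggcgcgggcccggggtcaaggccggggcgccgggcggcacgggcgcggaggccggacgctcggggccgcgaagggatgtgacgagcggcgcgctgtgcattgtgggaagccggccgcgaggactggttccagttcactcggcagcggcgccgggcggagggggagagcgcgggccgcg
The H2B promoters hold both motifs and the H2AFY promoter holds neither. A promoter was found for 40 of the 49 histone genes, and TATAAA was in 26 of them (65%) and CCAAT in 33 (82.5%). Among the 9142 promoters of all genes tested that had one, TATAAA was in 5.55% and CCAAT in 38.3%. Of the 15 risen histone genes with a promoter, 10 held TATAAA (66.7%) and 14 held CCAAT (93.3%). Of the 3 fallen genes, 1 held TATAAA and 1 held CCAAT. Of the 22 with a promoter among the 30 that did not pass the test, 15 held TATAAA (68.2%) and 18 held CCAAT (81.8%), so TATAAA was about as frequent there as among the risen genes, with a promoter known for only 73.3% of them. A match is a description of the letters and not a binding site.

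**Figure D2:**
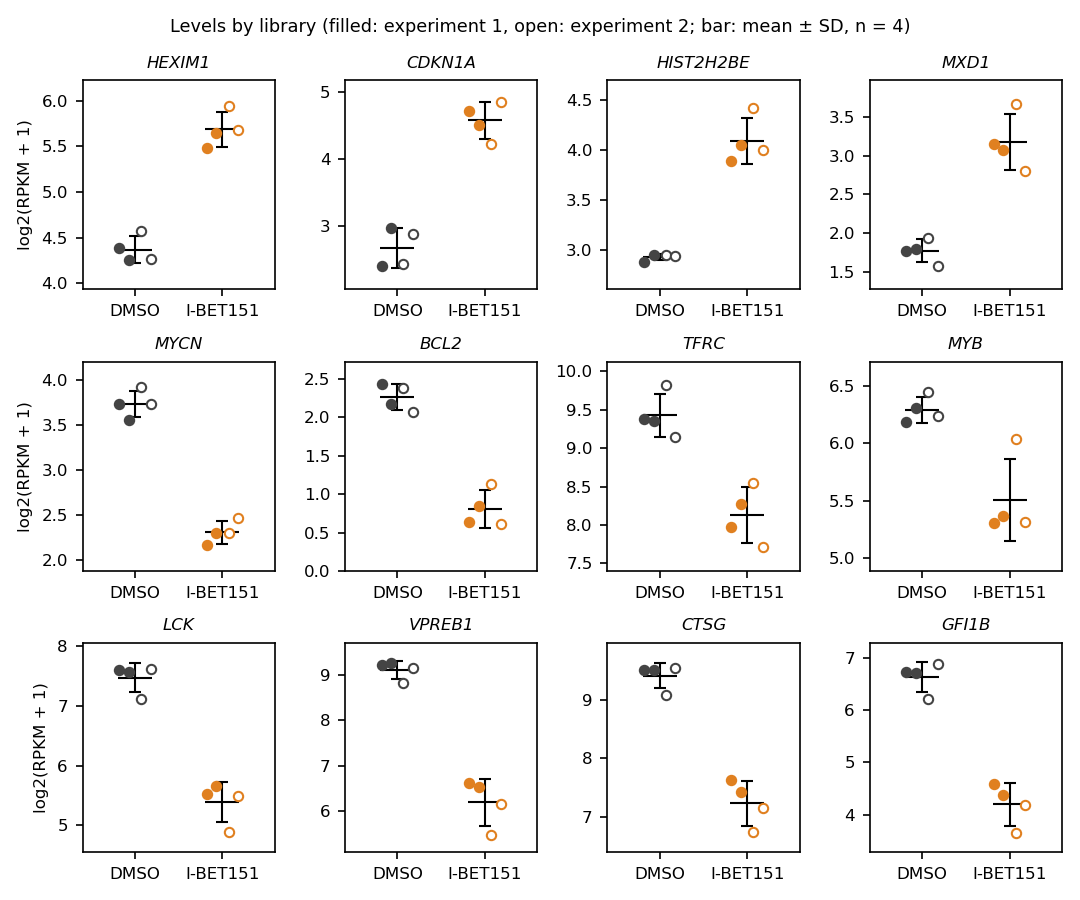
Levels of 12 genes by library (vertical axes, log2(RPKM + 1), scaled per gene), with grey points for DMSO and orange for I-BET151. Filled symbols are experiment 1, open symbols experiment 2, and bars the mean ± SD of 4 libraries. HEXIM1, CDKN1A, HIST2H2BE and MXD1 are higher in every I-BET151 library and the other 8 genes are lower, while the treated MYB value of experiment 2 replicate 1 sits nearest to the controls.

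The largest rise by log2 change belonged to EFR3B, which anchors a phosphatidylinositol kinase at the plasma membrane. It stood at 0.824, 0.702, 0.68 and 1.28 RPKM under DMSO and 9.54, 7.89, 6.49 and 8.73 under I-BET151, a 9.37-fold higher mean level (log2 change 2.29, SE 0.13, adjusted p = 5.14e-10). ELOVL4, an elongase of very long fatty acids, rose from 2.48 ± 0.687 to 14.5 ± 6.37 RPKM, and SMIM14, a small membrane protein, from 3.94 ± 1.07 to 20.1 ± 5.44 RPKM. LPAR6, a receptor for lysophosphatidic acid, went from 21.7, 21, 45.6 and 23.3 RPKM to 72.8, 93.6, 186 and 79.95 RPKM, and RGS2, which quenches G-protein signals, from 11.4, 12.1, 25 and 10.2 to 37.1, 35.9, 90.5 and 36.2 RPKM. For both genes replicate 1 of experiment 2, the library with the steepest GC slope, was the highest treated library, and the same number was the highest control. LGMN, a lysosomal protease, rose by 1.75 (SE 0.20) from 2.43 to 10.4 RPKM. The enzymes among them were DCXR of sugar metabolism with 64.2 to 113 RPKM under DMSO and 184 to 326 under I-BET151, and GSTZ1 of tyrosine breakdown, which rose by 1.45 (SE 0.15). WDR47, a microtubule-linked protein, and CCSAP, a centriole protein, rose by 1.54 (SE 0.16) and 1.51 (SE 0.20). None of these 10 genes had overlapping groups.

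The 15 largest falls included genes best known from other tissues, beside the lineage genes VPREB1, CD244 and HSH2D, whose values stand with their gene lists. MB, which encodes the oxygen-binding protein myoglobin, fell from 10.8, 12.8, 12.5 and 16.1 RPKM under DMSO to 0.922, 0.282, 0.62 and 0.89 RPKM, a log2 change of -3.07 (SE 0.22, adjusted p = 1.57e-08). The treated libraries held 2 to 7 reads each for MB against 73 to 120 in the controls. SPINK4, a protease inhibitor known from the gut, fell from 11.9 to 0.754 RPKM and was listed at 0 in 1 treated library. HPGDS, which makes prostaglandin D2, fell from 14.5, 15.1, 30.5 and 19.9 RPKM to 2.94, 1.45, 1.92 and 1.28 RPKM. ACTG2, a smooth muscle actin, fell by 2.8 (SE 0.29) and GLDC, the glycine decarboxylase of the mitochondrial glycine cleavage system, by 2.69 (SE 0.16). TGM5, a transglutaminase, fell from 13.8 ± 1.59 to 1.28 ± 0.174 RPKM and NOG, a secreted inhibitor of bone morphogenetic proteins, from 52.9 ± 12.6 to 7.44 ± 1.34 RPKM. Channels and transporters were among them, with KCNQ1, a potassium channel, at 3.52 to 8.14 RPKM under DMSO and 0.178 to 0.419 under I-BET151, and SLC6A13, a GABA transporter, falling by 2.58 (SE 0.14). IL18RAP, an accessory chain of the interleukin-18 receptor, fell from 23.2, 23.2, 29.2 and 27.6 RPKM to 5.68, 4.39, 1.55 and 3.47 RPKM. The long noncoding RNA LINC00539 fell from 78.1 ± 9.71 to 11.6 ± 3.88 RPKM. PDLIM1, an actin-associated adaptor, fell by 2.52 (SE 0.20). In each gene of this set the highest treated library lay below the lowest control library.

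Leukaemia genes known to fall under BET inhibition moved in both directions. Of 14 tested, 8 fell and 2 rose, with a median log2 change of -0.56. BCL2, which blocks mitochondrial apoptosis, fell from 4.39, 3.52, 4.21 and 3.22 RPKM under DMSO to 0.553, 0.798, 1.2 and 0.529 RPKM under I-BET151 (log2 change -1.46, SE 0.16, adjusted p = 1.67e-06). MYCN, the MYC relative expressed by this line, fell from 12.3, 10.8, 14.1 and 12.3 RPKM to 3.49, 3.93, 3.91 and 4.54 RPKM (log2 change -1.43, SE 0.20, adjusted p = 4.72e-05). In both genes every treated library lay below every control. TYRO3, a receptor tyrosine kinase, fell by 1.21 (SE 0.17) and the G1 cyclins CCND2 and CCND3 by 0.84 (SE 0.12) and 0.49 (SE 0.15). MYB, a transcription factor of immature blood cells, fell from 71.9, 78, 86.2 and 74.2 RPKM to 38.6, 40.1, 64.5 and 38.8 RPKM (log2 change -0.79, SE 0.12). The treated replicate 1 of experiment 2 was the nearest to the controls and still below them. Against the list's name, HOXA9 rose from 22 ± 3.27 to 45.9 ± 10.1 RPKM (log2 change 1.01, SE 0.13) and PIM1, a survival kinase downstream of STAT5, from 13.2 ± 3.73 to 22.2 ± 3.03 RPKM. CDK6 and RUNX1 did not pass the test, with log2 differences of -0.17 (SE 0.15) and -0.14 (SE 0.12). With the 3 steep-GC libraries left out CDK6 fell by 0.33 (adjusted p = 0.0211).

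MYC itself was near 0 in this line, at 0 to 0.164 RPKM under DMSO and 0 to 0.0871 under I-BET151, and was not tested. Of 11 tested genes of the MYC network, 2 rose and 2 fell. The repressors MXD1 and MXD3, which compete with MYC proteins for their partner MAX, rose by 1.4 (SE 0.16) and 0.75 (SE 0.18). For MXD1 that was a step from 2.41, 2.49, 2.84 and 2 RPKM to 7.88, 7.42, 11.7 and 5.98 RPKM, with no overlap. MGA, another MAX partner, fell by 0.39 (SE 0.11).

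Many nucleolar and growth genes that MYC proteins are known to drive fell. Of 37 tested, 21 fell and none rose, with a median of -0.48 (all genes 0.000406). TFRC, the transferrin receptor for iron uptake, went from 667, 652, 904 and 568 RPKM to 250.2, 307, 374 and 208 RPKM, and LYAR, a nucleolar protein, from 53.4, 66.1, 77.3 and 60.04 to 35.7, 36.7, 32.5 and 27.7 RPKM. Both had non-overlapping groups and log2 changes of -1.3 (SE 0.17, adjusted p = 1.23e-05) and -0.93 (SE 0.12, adjusted p = 1.29e-05). The abundant nucleolar proteins NCL and NPM1 fell by 0.40 (SE 0.12) and 0.29 (SE 0.09, adjusted p = 0.0522 with the replicate block). Fitted alone, experiment 1 called 24 falls of this list and experiment 2 called 4.

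Few cytosolic ribosomal protein genes passed the test. Of 78 tested, 3 rose and 9 fell, with a median of -0.09. RPLP1 rose from 1100.5 ± 188 to 1616 ± 254 RPKM and RPL28 by 0.55 (SE 0.16), while RPS26 fell by 0.94 (SE 0.14) and RPL17 by 0.65 (SE 0.15). These genes have many processed copies that can share reads. Of 78 mitochondrial ribosomal protein genes, 27 fell and 2 rose, with a median of -0.23. The falls numbered 21 in experiment 1 alone, 2 in experiment 2 alone and 10 with only the 8 libraries compared. MRPS15 fell from 80.9 ± 10.2 to 38.7 ± 8.12 RPKM and MRPL15 from 135 ± 11.7 to 78.9 ± 3.42 RPKM, and MRPS14 and MRPL53 were the members that rose, by 0.41 (SE 0.14) and 0.38 (SE 0.14). Neither was called with the replicate block (adjusted p = 0.0523 and 0.0531), and MRPS14 was at 0.24 without I-BET151 replicate 1 of experiment 2 (adjusted p = 0.152).

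**Figure D3:**
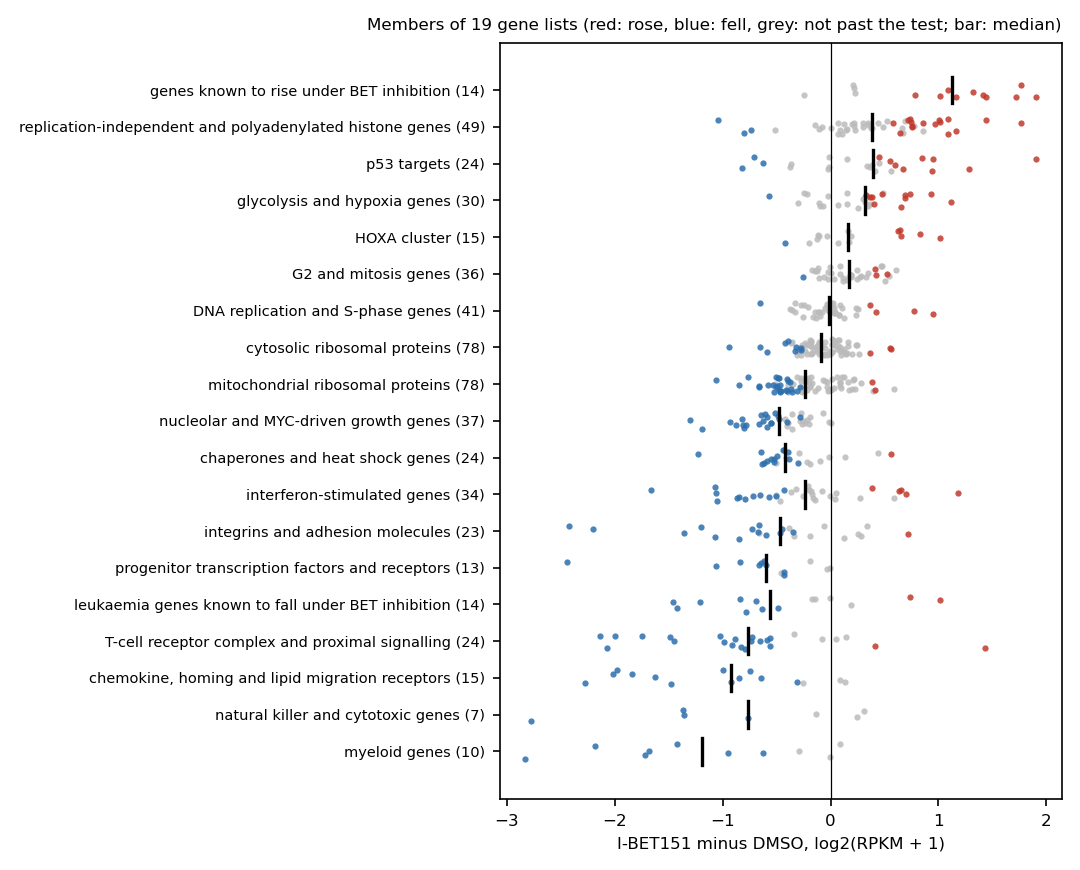
Log2 change of each tested member (points, horizontal axis, I-BET151 minus DMSO in log2(RPKM + 1)) of 19 gene lists (rows, with the number tested), with red for genes that rose, blue for genes that fell, grey for genes not past the test and a black bar at the median. The medians run from 1.13 for genes known to rise under BET inhibition to -1.19 for myeloid genes, with medians of -0.01 and 0.17 for replication and mitosis genes.

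Most transcription factors of progenitors fell. Of 13 tested genes of this list, 9 fell and none rose, with a median of -0.60. GFI1B, a transcriptional repressor needed for erythroid and megakaryocyte development, fell most, from 105, 104, 73.7 and 117 RPKM under DMSO to 23.1, 19.7, 11.5 and 17.1 RPKM under I-BET151 (log2 change -2.44, SE 0.18, adjusted p = 1.53e-08). LYL1, a factor of early T-cell precursor leukaemia, fell from 7.51 ± 1.68 to 3.08 ± 0.782 RPKM, ETV6 by 0.84 (SE 0.12) and ERG by 0.43 (SE 0.09). HHEX, a homeobox factor of early progenitors, was at 109.8, 102, 138 and 104 RPKM under DMSO and 57.8, 70.2, 148 and 75 RPKM under I-BET151. Its treated replicate 1 of experiment 2 was above every control and the other 3 treated libraries were below them all, and it did not pass the test (adjusted p = 0.0897). With the 3 libraries of steep GC slope left out HHEX fell by 0.64 (adjusted p = 0.00249). LMO2, a partner of LYL1, did not pass the test either (adjusted p = 0.989). The progenitor receptors KIT, FLT3 and IL7R and the surface marker CD34 did not reach the filter, with no library above 0.965 RPKM in either group.

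The HOXA cluster, which early T-cell precursor leukaemias often express, moved upward in part. Of 15 tested genes at this locus, 5 rose and 1 fell, with a median of 0.17. HOXA9 went from 22, 24.3, 17.3 and 24.2 RPKM to 57.4, 47.9, 32.9 and 45.3 RPKM, HOXA10 rose by 0.64 (SE 0.15) and HOXA3 by 0.82 (SE 0.14). HOTTIP, a noncoding RNA of the distal end of the cluster, was the member that fell (log2 change -0.42, SE 0.15, adjusted p = 0.0475), with overlapping groups and an adjusted p of 0.0592 with the replicate block. Overlapping transcripts of the cluster's 2 strands cannot be told apart in these libraries. In the HOXB cluster, HOXB7 rose from 47.8, 52.8, 45.4 and 45.5 RPKM to 128, 129.9, 186 and 144 RPKM (log2 change 1.58, SE 0.13, adjusted p = 5.24e-08).

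Genes of the T-cell receptor complex and its proximal signalling mostly fell. This machinery passes the antigen signal from the CD3 chains through the kinases LCK and ZAP70 to adaptors. Of 24 tested members, 18 fell and 2 rose, with a median of -0.77. LCK, the kinase that starts the signal, fell from 192, 188, 137 and 193 RPKM to 45.3, 49.4, 28.7 and 44 RPKM, a 4.24-fold lower mean (log2 change -2.07, SE 0.13, adjusted p = 3.51e-09). TRAT1, a transmembrane adaptor of the receptor, fell from 28, 29.4, 36.2 and 34 RPKM to 4.96, 7.5, 7.21 and 6.32 RPKM. CD3E, a chain of the receptor complex, fell from 169.5, 169, 154 and 189 to 115, 123, 90.2 and 105 RPKM (log2 change -0.66, SE 0.10). None of these 3 genes had overlapping groups. The members that rose were THEMIS, a regulator of receptor signalling in thymocytes, from 3.91, 2.96, 4.74 and 2.21 RPKM to 9.26, 10.02, 17 and 8.34 RPKM, and PTPRC, the phosphatase CD45, by 0.41 (SE 0.12), with overlapping groups. Fitted alone, experiment 1 called 18 falls of this list and experiment 2 called 10.

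Other T-lineage genes fell as well. Of 8 tested surface markers, 6 fell and 1 rose, with a median of -0.79. CD96 fell from 54.8 ± 6.47 to 14 ± 2.65 RPKM, CD38 by 0.85 (SE 0.11) and CD4 by 0.73 (SE 0.23), while CD7, an early T-lineage marker, had a log2 difference of -0.29 (SE 0.18) and did not pass the test. With those 3 steep-GC libraries left out CD7 fell by 0.38 (adjusted p = 0.0253), and CD4 did not pass the test (adjusted p = 0.111). CD4 was at -0.47 without I-BET151 replicate 1 of experiment 2 (adjusted p = 0.0861). The early activation marker CD69 rose from 14.5, 15.3, 16.6 and 12.5 RPKM to 25.2, 24.7, 55.4 and 25.3 RPKM. Among 24 tested T-lineage transcription factors, 6 fell and none rose, with a median of -0.17. ETS1 fell from 37.1 ± 3.3 to 17.9 ± 0.961 RPKM, IKZF1 from 10.3 ± 0.6 to 4.67 ± 0.777 RPKM and GATA3 from 46.9 ± 3.77 to 28.7 ± 2.97 RPKM. BCL11B and NOTCH1 had log2 differences of -0.23 (SE 0.13) and 0.05 (SE 0.13), not past the test. Of 5 tested genes of recombination and cortical thymocytes, CD1A and RAG2 fell, by 1.64 (SE 0.18) and 1.13 (SE 0.13), and ELOVL4 rose. DNTT, which adds random bases during recombination, was at most 0.475 RPKM in any of the 8 libraries.

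Genes of other blood lineages, which this line also expresses, were among the deepest falls. Of 8 tested B-lineage genes, 5 fell and none rose, with a median of -0.76. VPREB1 and IGLL1 encode the surrogate light chain, which stands in for the antibody light chain in pre-B cells. VPREB1 (chromosome 22, 22244675 to 22245515) fell from 591, 607, 448 and 563 RPKM under DMSO to 97.4, 91.2, 44 and 70.4 RPKM under I-BET151, and IGLL1 from 3715, 3564, 2272 and 3367 RPKM to 1009.5, 793, 373 and 544 RPKM. The log2 changes were -2.9 (SE 0.15, adjusted p = 2.40e-10) and -2.32 (SE 0.16, adjusted p = 5.99e-09), and in both genes the fall was deeper in experiment 2 (-3.15 and -2.61) than in experiment 1 (-2.66 and -2.02), a difference that did not pass its test. IGLL1 has near-identical copies, so its value is uncertain. The B-cell markers MS4A1 and PAX5 averaged at most 0.647 RPKM in either group, while CD79A went from 402 to 223 RPKM and EBF1 from 21 to 23.2 RPKM, and these 4 markers summed to 280 to 515 RPKM under DMSO and 168 to 325 under I-BET151.

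Among 10 tested myeloid genes, 7 fell and none rose, with a median of -1.19. CTSG, a neutrophil granule protease, fell from 729, 734, 545 and 744 RPKM to 196, 170.2, 105 and 140.5 RPKM (log2 change -2.19, SE 0.13, adjusted p = 7.25e-10). LYZ, which encodes lysozyme, fell from 17.4, 13.3, 18.4 and 19.2 RPKM to 3.5, 4.26, 5.57 and 4.62 RPKM (log2 change -1.72, SE 0.13). Both genes had non-overlapping groups. The 4 myeloid markers in the table (MPO, LYZ, ITGAM and CSF1R) summed to 17.9 to 23.9 RPKM under DMSO and 4.41 to 6.86 under I-BET151, with ITGAM and CSF1R under 0.6 RPKM on average in both groups. Of 7 tested natural killer and cytotoxic genes, 4 fell and none rose. GZMA, a granzyme, fell from 994, 999, 1580.3 and 1403 RPKM to 438, 472, 521 and 474 RPKM and CD244, a receptor of the SLAM family, from 44.9, 44.5, 39.4 and 47 to 6.59, 6.89, 3.82 and 5.38 RPKM. Among the natural killer markers, NKG7 fell, from an average of 148 RPKM under DMSO to 56.9 under I-BET151. NCAM1 was near 0, averaging 0.0672 RPKM under DMSO and 0.169 under I-BET151. Of 5 tested erythroid and megakaryocyte genes, 4 fell, with HBD, a haemoglobin chain, going from 4.26 to 0.244 RPKM and TFR2 falling by 0.93 (SE 0.15). PECAM1, an adhesion molecule of endothelial and blood cells, was the 1 tested member of a non-haematopoietic list and fell from 23.5, 26.6, 21.9 and 24.5 RPKM to 4.69, 4.32, 2.42 and 3.62 RPKM. The endothelial markers CDH5 and VWF averaged at most 0.691 RPKM in either group.

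**Figure D4:**
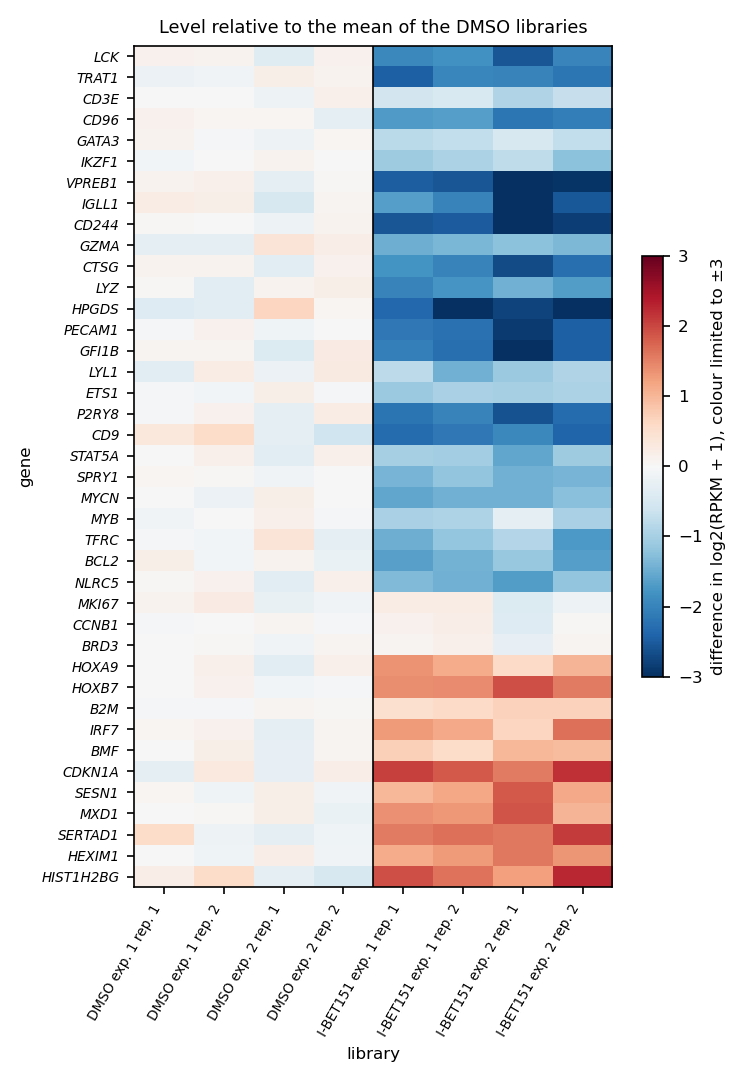
Level of 40 genes (rows) in each of the 8 libraries (columns), as the difference in log2(RPKM + 1) from the mean of the 4 DMSO libraries, with blue for lower and red for higher and the colour limited to ±3. Lineage, homing and growth genes are lower in all 4 I-BET151 libraries, MKI67, CCNB1 and BRD3 stay near the control level, and the genes from HOXA9 to HIST1H2BG are higher.

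Most receptors that guide lymphocytes through tissue fell. Of 15 tested chemokine, homing and lipid migration receptors, 12 fell and none rose, with a median of -0.93. P2RY8, a receptor that confines lymphocytes to follicles, fell from 8.78, 9.98, 7.22 and 10.7 RPKM to 1.21, 1.5, 0.651 and 1.05 RPKM (log2 change -2.28, SE 0.17, adjusted p = 1.53e-08). Of 23 integrins and adhesion molecules, 13 fell and 1 rose, with a median of -0.47. CD9, a tetraspanin, fell by 2.2 (SE 0.23), from 7.16 to 0.705 RPKM, and the integrin chain ITGAV rose by 0.72 (SE 0.23), with 1.9, 1.71, 6.14 and 1.86 RPKM in the treated libraries against 1.39, 0.887, 1.43 and 0.984 in the controls. ITGAV was at 0.44 without I-BET151 replicate 1 of experiment 2 (adjusted p = 0.111), and no integrin gene rose with the 3 steep-GC libraries left out. Of 5 tested genes on a list of SLAM receptors and signalling adaptors, 4 fell, and the same number was called in each experiment alone. The falls included CD244 and HSH2D, an adaptor outside the SLAM family. HSH2D went from 68.8, 72.9, 52 and 75 RPKM to 14.1, 10.9, 8.52 and 11 RPKM.

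Cytokine and growth signalling genes were split. Of 24 tested cytokine receptor and JAK/STAT genes, 6 fell and 4 rose, with a median of 0.02. The receptor IL9R fell by 1.57 (SE 0.11), and the signal transducers STAT5A and STAT5B fell from 60.9 ± 9.53 to 26.6 ± 4.59 and from 23.9 ± 1.7 to 12.2 ± 1.17 RPKM. STAT2, which carries interferon signals, rose from 16 ± 0.866 to 25.9 ± 2.03 RPKM, and JAK3 had a log2 difference of 0.18 (SE 0.13) that did not pass the test. Of 16 tested RAS/MAPK feedback and output genes, 6 fell and 1 rose. The feedback inhibitor SPRY1 fell from 21.8, 21.3, 19.5 and 21.1 RPKM to 7.28, 8.68, 7.02 and 7.38 RPKM, the ETS factor ETV5 by 1.29 (SE 0.15) and the phosphatase DUSP6 by 0.63 (SE 0.17). FOS, an immediate early gene, rose from 0.57, 0.898, 1.11 and 1.47 RPKM to 3.14, 3.08, 7.18 and 2.1 RPKM. In untreated LOUCY (n = 6) DUSP6 and ETV5 stood at 20.1 ± 4.17 and 14.3 ± 2.56 RPKM, against 7.24 ± 0.516 and 7.34 ± 0.689 RPKM under DMSO. Of 20 tested genes of the TNF superfamily and NF-kB, 5 fell and none rose, led by the receptor TNFRSF18 (log2 change -1.57, SE 0.23) and the ligand TNFSF4 (-1.05, SE 0.17), and 8 fell with the 3 steep-GC libraries left out. Of 14 tested S100 proteins, annexins and galectins, 4 fell and 3 rose, with LGALS9, a galectin known as a ligand of the inhibitory receptor TIM-3, going from 26.1 ± 5.5 to 4.4 ± 0.934 RPKM, S100A6 from 423 ± 51.2 to 222 ± 36.5 RPKM and ANXA4 from 13.1 ± 0.373 to 25.5 ± 3.42 RPKM.

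Antigen presentation and interferon genes also moved both ways. Of 18 tested MHC class I and peptide loading genes, 8 fell and 3 rose, with a median of -0.28. NLRC5, the transactivator of class I genes, fell from 15.4, 16.5, 11.7 and 16.8 RPKM to 5.41, 4.83, 3.97 and 6 RPKM, and the immunoproteasome subunit PSMB8 from 58.8, 61.6, 45.9 and 59.7 to 34.9, 30.3, 21.2 and 29.5 RPKM. In the same libraries B2M, the light chain of class I molecules, rose from 2965, 2997, 3261 and 3139.8 RPKM to 4303, 4573, 4952 and 4979 RPKM (log2 change 0.60, SE 0.10, adjusted p = 1.21e-04) and HLA-C rose by 0.45 (SE 0.12). Of 3 tested class II genes, HLA-DQB1 rose (log2 change 0.44, SE 0.15, adjusted p = 0.0371), with overlapping groups and an adjusted p of 0.0611 with the replicate block. Of 34 tested interferon-stimulated genes, 12 fell and 5 rose, with a median of -0.24. EPSTI1 fell by 1.67 (SE 0.14) and USP18, which restrains interferon signalling, by 1.06 (SE 0.12), while IRF7, the factor that amplifies interferon production, rose from 1.82, 1.95, 1.22 and 1.83 RPKM to 5.56, 4.94, 3.18 and 7.51 RPKM.

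Few replication and mitosis genes passed the test. Of 41 replication and S-phase genes, 4 rose and 1 fell, with a median of -0.01, and of 36 G2 and mitosis genes, 3 rose and 1 fell, with a median of 0.17. MKI67, a marker of cycling cells, stood at 18.5 ± 2.87 RPKM under DMSO and 18.3 ± 4.03 under I-BET151, and CCNB1, the mitotic cyclin, at 174 ± 7.62 and 176 ± 29.8 RPKM. The replication genes MCM2 and TYMS had log2 differences of -0.37 (SE 0.17) and -0.01 (SE 0.15), and MCM2, with the 3 steep-GC libraries left out, fell by 0.45 (adjusted p = 0.00619). TK1, thymidine kinase, rose from 118, 119.6, 75.1 and 111 RPKM to 235, 207, 152 and 225 RPKM and SLBP, the histone stem-loop binding protein, by 0.77 (SE 0.17), while POLE2 fell by 0.66 (SE 0.16). PTTG1 and ESPL1, securin and separase of sister chromatid separation, rose by 0.52 (SE 0.13) and 0.41 (SE 0.13), and UBE2C fell by 0.25 (SE 0.09). The mitosis count depended on the libraries, with 6 genes rising when the 3 steep-GC libraries were left out, 11 in experiment 1 alone and none in experiment 2 alone. With only the 8 libraries compared, 0 mitosis genes rose and 0 fell. In all 36 of them the I-BET151 and DMSO libraries overlapped. Of 20 G1 cyclins, kinases and E2F genes, 5 fell and 1 rose, with E2F3 falling by 0.60 (SE 0.09) and E2F7, a repressor, rising by 0.59 (SE 0.14).

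Inhibitors of the cycle rose in part. Of 6 tested CDK inhibitors, 3 rose and none fell. CDKN2D, which blocks CDK4 and CDK6, rose from 28.9, 30.2, 16.7 and 22.6 RPKM to 49.5, 45.6, 42.7 and 46.9 RPKM, and CDKN1B, the inhibitor p27, had a log2 difference of -0.19 (SE 0.30). Of 24 tested p53 targets, 9 rose and 3 fell, with a median of 0.40. SESN1 and SESN2, stress proteins that restrain growth signalling, rose from 13.6 ± 1.46 to 35.4 ± 10.6 and from 3.24 ± 1.04 to 7.02 ± 1.08 RPKM, and the falls included AEN, a nuclease (-0.82, SE 0.23), and TRIAP1 (-0.63, SE 0.20). Of 5 tested anti-apoptotic genes of the BCL2 family, 3 fell and none rose. BCL2A1 fell by 0.71 (SE 0.20) from a level of 0.911 RPKM. MCL1, at 22.6, 22, 29.2 and 21.9 RPKM under DMSO and 24.9, 31, 58.5 and 28.3 RPKM under I-BET151, did not pass the test (adjusted p = 0.0706). It rose by 0.51 after quantile normalization (adjusted p = 0.0323) and by 0.52 with the GC trends removed (adjusted p = 0.0241). Of 9 tested pro-apoptotic relatives, 2 rose and 2 fell. BCL2L11, which encodes BIM, rose from 2.7, 2.75, 2.64 and 2.01 RPKM to 4.89, 4.06, 5.16 and 3.52 RPKM and BMF from 1.29, 1.58, 0.937 and 1.45 to 2.76, 2.38, 3.6 and 3.41 RPKM, while BIK fell by 0.81 (SE 0.15) and BID by 0.31 (SE 0.11, adjusted p = 0.0568 with the replicate block). PMAIP1, which encodes NOXA, had a log2 difference of -0.38 (SE 0.17, adjusted p = 0.103), and with the 3 steep-GC libraries left out it fell by 0.55 (adjusted p = 0.00147) while BCL2A1 did not pass the test (adjusted p = 0.0519).

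The shares of chromatin regulators called were near or below the 10.3% of all genes that rose and the 15.9% that fell. Of 10 tested genes of Polycomb repressive complex 2 and its partners, 2 fell and none rose. JARID2, an accessory subunit, fell from 26.3 ± 3.12 to 14.8 ± 1.16 RPKM and PHF19 by 0.58 (SE 0.16). The catalytic subunit EZH2, a gene of the series' title, was at most 0.543 RPKM in any of the 8 libraries and was not tested, and its relative EZH1 had a log2 difference of -0.04 (SE 0.16). Of 33 Mediator and SWI/SNF genes, 3 fell and 1 rose, with SMARCC1 falling by 0.36 (SE 0.10), MED6 falling by 0.40 (SE 0.10) and MED14 rising by 0.46 (SE 0.13). Of 23 histone acetyltransferases and deacetylases, 3 rose and 3 fell. KAT2A, the acetyltransferase GCN5, fell from 16.6 ± 3.15 to 8.77 ± 1.6 RPKM, HDAC9 fell by 0.50 (SE 0.17), SIRT2 rose from 21.6 ± 4.01 to 38.7 ± 7.93 RPKM and HDAC3 rose by 0.45 (SE 0.12). HDAC9 was at -0.30 without I-BET151 replicate 2 of experiment 2 (adjusted p = 0.117) and was not called with the replicate block (adjusted p = 0.0527). Of 412 tested zinc finger genes of the ZNF series, 37 fell and 11 rose. ZNF683, known as HOBIT in tissue-resident lymphocytes, fell from 26.6, 29.7, 17.2 and 27.1 RPKM to 6.97, 5.08, 1.99 and 4.52 RPKM, and ZNF333 rose by 0.50 (SE 0.12). Of 106 tested long intergenic noncoding RNA genes, 22 fell and 10 rose, with LINC00675 falling from 5.38 to 0.438 RPKM and LINC00938 rising from 13.8 ± 1.99 to 31.2 ± 11.8 RPKM.

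More than 10 members fell among protein folding genes and rose among genes of glucose use. Of 24 tested chaperones and heat shock genes, 14 fell and 1 rose, with a median of -0.42. The falls numbered 13 in experiment 1 alone, 2 in experiment 2 alone and 10 with only the 8 libraries compared. HSPB1, a small heat shock protein, fell from 139, 134, 106 and 170.1 RPKM to 60.4, 55.4, 45.9 and 69.1 RPKM and the mitochondrial chaperonin HSPD1 from 197, 187, 224 and 194 to 139.5, 139, 119.7 and 118 RPKM, and BAG3, a cochaperone, rose (log2 change 0.56, SE 0.20, adjusted p = 0.0424). The value of BAG3 was 0.32 without DMSO replicate 1 of experiment 2 (adjusted p = 0.155). Of 31 proteasome subunits, 8 fell and none rose, with PSMA6 falling by 0.59 (SE 0.11) and PSMB5 falling by 0.41 (SE 0.09). With only the 8 libraries compared, 1 subunit fell. In experiment 1 alone 7 fell at a list median of 0.0279, and in experiment 2 alone 0 fell at a median of -0.202. Of 30 tested glycolysis and hypoxia genes, 11 rose and 1 fell, with a median of 0.32. ANKRD37 and the regulatory kinase PFKFB4 rose by 1.12 (SE 0.17) and 0.93 (SE 0.18), and LDHB, a lactate dehydrogenase chain, fell from 1494 ± 110.1 to 1015 ± 162 RPKM. Experiment 2 alone called 2 rises of this list against 11 in experiment 1. Of 88 oxidative phosphorylation genes, 11 fell and 6 rose, with NDUFA9 falling by 0.54 (SE 0.10) and COX6A1 rising by 0.53 (SE 0.11).

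Amino acid and stress genes moved both ways. Of 19 tested ATF4 stress genes, 8 fell and 4 rose, with TRIB3, a pseudokinase induced by stress, going from 10.3 ± 1.67 to 4.22 ± 1.19 RPKM, the endoplasmic reticulum chaperone HSPA5 from 183 ± 9.64 to 120.3 ± 21.9 RPKM and DDIT4, an inhibitor of mTORC1, up from 166 ± 11.5 to 327 ± 39.1 RPKM. Of 21 serine, glycine and one-carbon enzymes, 7 fell and 2 rose. The purine enzyme PAICS fell from 189, 188, 233 and 195 RPKM to 129.6, 132, 134 and 118 RPKM, and PSPH, of serine synthesis, rose by 0.27 (SE 0.10, adjusted p = 0.0677 with the replicate block). Of 20 solute and amino acid transporters, 9 fell and 1 rose, with SLC38A5, a glutamine carrier, going from 22.7, 25.1, 16.2 and 26.4 RPKM to 4.5, 4.81, 2.51 and 3.31 RPKM, SLC7A1, a carrier of basic amino acids, falling by 0.82 (SE 0.11) and the glucose carrier SLC2A3 rising by 0.41 (SE 0.12).

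Some lipid genes passed the test in each direction. Of 25 cholesterol genes, 3 rose and 1 fell, near or below the 10.3% and 15.9% of all genes. The reductase TM7SF2 rose by 1.01 (SE 0.15). With only the 8 libraries compared, 1 cholesterol gene rose, and in experiment 2 alone 0 did. Of 22 fatty acid genes, 5 rose and 4 fell. The acyl-CoA synthetases went opposite ways, with ACSL1 rising from 2.03, 2.58, 3.55 and 2.21 RPKM to 4.74, 6.43, 9.84 and 5.78 RPKM and ACSL5 falling from 17.7, 19, 16.9 and 20.6 to 4.79, 4.96, 6.72 and 4.24 RPKM. ELOVL6 fell by 0.87 (SE 0.12) while ELOVL4 rose. Of 27 actin and actin-binding genes, 13 fell and 5 rose. TPM4, a tropomyosin, fell from 295 ± 27.4 to 132 ± 13.8 RPKM, and the intermediate filament gene VIM and the actin-sequestering TMSB10 rose by 0.65 (SE 0.09) and 0.67 (SE 0.13).

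The JQ1 libraries of the same experiments share the DMSO controls, and the drugs were used at different doses, so values are given side by side. HEXIM1 stood at 53.1 ± 2.72 RPKM under 250 nM JQ1 and 50.8 ± 7.05 under 500 nM I-BET151, CDKN1A at 25.4 ± 3.96 and 23.2 ± 4.52, and HIST1H2BD at 25.4 ± 3.71 and 17.1 ± 1.98. Among the falls, VPREB1 stood at 76.7 ± 2.61 RPKM under JQ1 and 75.7 ± 24.1 under I-BET151, LCK at 39.7 ± 1.35 and 41.8 ± 9.06, MYCN at 3.19 ± 1.4 and 3.97 ± 0.433, and SLC6A13 at 4.87 ± 1.25 and 2.79 ± 0.249. At these doses the test between the drugs called 0 of 11411 genes (0%) in limma and 0 with read weights (limma voom), with 531 genes at an unadjusted p under 0.05 and a smallest adjusted p of 0.579. The median SE of a difference was 0.153, so small differences at these doses would not be seen, and the result does not show that the drugs act alike.

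The test for a different effect of I-BET151 between experiments called 1 of 11411 genes (0.00876%), with 312 at an unadjusted p under 0.05. The latter count was 188 to 2090 when 1 library was left out. Each group held 2 libraries per experiment, and the replicate pairs of experiment 2 differed widely. Many differences could therefore be missed, and the result does not show that the experiments responded alike. That gene, SNORD27, is a small nucleolar RNA that lies inside a host gene, and its RPKM was 0, 0, 18.6 and 18.2 in the DMSO libraries and 5.08, 10.9, 9.57 and 8.58 in the I-BET151 libraries. The DMSO libraries of experiment 1 were listed at 0, and those of experiment 2 were above all treated libraries. It was not called for I-BET151 as a whole (adjusted p = 0.276). The test between experiments called 0 genes with read weights (limma voom, 307 at an unadjusted p under 0.05) and 0 without either DMSO library of experiment 1, either DMSO library of experiment 2 or the I-BET151 replicate 2 of experiment 1.

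**Figure D5:**
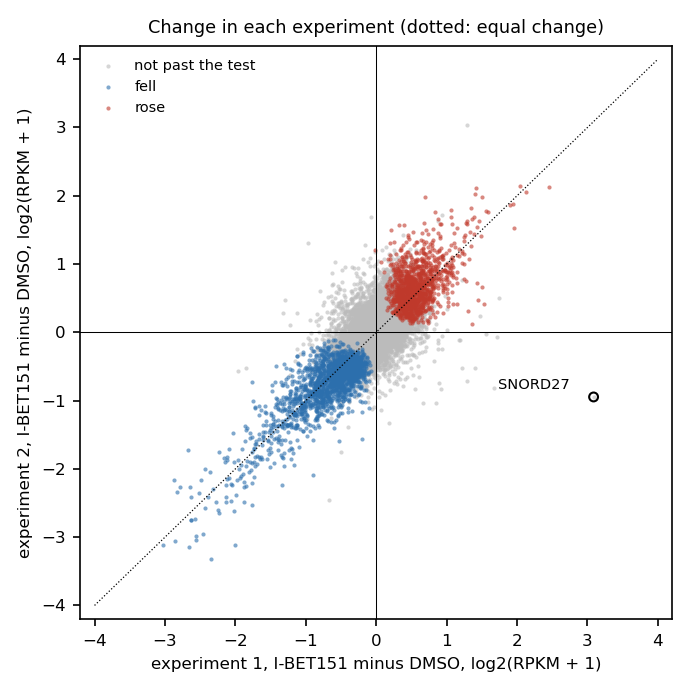
Log2 change of each gene in experiment 1 (horizontal axis) and in experiment 2 (vertical axis), both as I-BET151 minus DMSO in log2(RPKM + 1), with red and blue for the genes that rose and fell in the combined fit. The 2 experiments share no library, but the genes were called from both together, which favours equal signs. Of the 2999 called genes, 2998 lie in the quadrants of equal sign, and SNORD27 lies apart at 3.09 and -0.95.

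The genes that fell by at least 1 had a higher median transcript GC content, at 53.2% against 47.6% for all genes tested and 47.6% for those that rose by at least 1 (GENCODE v29, known for at least 94.4% of each set). Their median gene span was 27.5 kb against 30.5 kb for all genes and 21.5 kb for the risen set. GC slopes relative to the group means also differed between libraries, as given above. Their part in this difference was not tested beyond the following counts. With the 3 steep-GC libraries left out, 79 genes rose and 368 fell by at least 1. With each library's GC trend removed, 105 rose and 320 fell by at least 1, and 1997 rose and 2207 fell at any size. Of the 2999 called genes, 2895 were called again with the trend removed.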

How the data were processed

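Poly(A) RNA of LOUCY and JURKAT cells was measured with Smart-seq2 libraries, primed on poly(A) and made without marking strand, per the labels' protocols. The authors deposited 1 table of RPKM values for 15862 genes in 24 libraries, and the submitters' processing notes name STAR 2.5.1b, featureCounts (Subread 1.4.5-p1), edgeR 3.10.5 and the build hg38. The values were whole multiples of 1 read in 100% of genes (within 0.01 reads), so read numbers of 4441060 to 7074198 per library were recovered. Groups came from the treatment and experiment labels.

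Genes with at least 1 RPKM in at least 4 of the 18 LOUCY libraries were fitted on log2(RPKM + 1) with limma 3.58.1 (R 4.3.3) with a mean-variance trend, with terms for group and experiment and with Benjamini-Hochberg adjustment over the 11411 genes. The other LOUCY groups entered the fit to share 1 estimate of the spread. The fit was tested on simulated data. Genes were named by a rule: the 15 largest rises and falls with a mean of at least 5 RPKM, at most 2 members per list and direction, and a fixed panel. Some genes that the rule or the marker lists name are not reported here. The comparison and the 52 gene lists were chosen with earlier results of these data known. Alternatives were other pseudocounts, filters and scalings, removal of GC trends, limma voom on recovered reads (2994 calls), a replicate block, each experiment alone and leaving out libraries. Gene positions came from GENCODE v29, which held 93.5% of the symbols, and promoters from RefSeq. Promoters were compared for histone genes only, since only 75.6% and 71.6% of the genes that rose and fell by at least 1 had one.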

Additional observations from a re-analysis of the deposited data

Results flagged for a closer look

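In each group of 4 libraries, a library was marked where its gap to the nearest other library took a larger share of the group's range than Dixon's 95% critical value. Of 432 groups tested, 2 for each gene named in the text, 39 held such a library, and chance gives about 1 in 20. Replicate 1 of experiment 2, whose libraries in both groups had a steep GC slope, was the marked library in 14 groups under DMSO and in 17 under I-BET151.

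The library I-BET151 replicate 1 of experiment 2 stood apart for RGS2 (90.5 RPKM, others 35.9 to 37.1), CCNT1 (21.4 RPKM, others 9.17 to 11.2), MYB (64.5 RPKM, others 38.6 to 40.1) and CDKN1B (8.81 RPKM, others 2.25 to 3.1). The same library stood apart for KIT (0.965 RPKM, others 0.177 to 0.239), JAK3 (17.7 RPKM, others 25.9 to 26.9), STAT5A (19.7 RPKM, others 28.4 to 29.5) and ZCCHC24 (11.3 RPKM, others 9 to 9.38). It also stood apart for CD69 (55.4 RPKM, others 24.7 to 25.3), ANXA4 (30.6 RPKM, others 23.6 to 24), STAT5B (10.4 RPKM, others 12.7 to 12.8) and ITGAV (6.14 RPKM, others 1.71 to 1.9). Further genes were SESN1 (51.1 RPKM, others 27.9 to 31.4), SLBP (71.5 RPKM, others 44.5 to 47), COX6A1 (435 RPKM, others 601 to 635) and HOXB3 (42.9 RPKM, others 13.1 to 17.8). Others were MYBL1 (10.8 RPKM, others 1.94 to 2.9).

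The library DMSO replicate 1 of experiment 2 stood apart for LPAR6 (45.6 RPKM, others 21 to 23.3), RGS2 (25 RPKM, others 10.2 to 12.1), CCSAP (4.49 RPKM, others 2.26 to 2.61) and BRD2 (5.31 RPKM, others 7.15 to 7.28). The same library stood apart for MCL1 (29.2 RPKM, others 21.9 to 22.6), JAK3 (16.1 RPKM, others 22.3 to 23.5), LCK (137 RPKM, others 188 to 193) and TXNIP (77 RPKM, others 67.4 to 68.4). It also stood apart for MCM2 (79.8 RPKM, others 150.4 to 163), RPL28 (11.1 RPKM, others 16.9 to 17.8), CTSG (545 RPKM, others 729 to 744) and AEN (10.5 RPKM, others 14.4 to 15). Further genes were PAICS (233 RPKM, others 188 to 195) and TPM4 (336 RPKM, others 279.5 to 283).

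The library DMSO replicate 2 of experiment 2 stood apart for BCL2L11 (2.01 RPKM, others 2.64 to 2.75), CDK6 (84.8 RPKM, others 104 to 107), E2F3 (19.5 RPKM, others 18 to 18.1) and VIM (153 RPKM, others 129 to 130.3). The library I-BET151 replicate 2 of experiment 2 stood apart for SERTAD1 (38 RPKM, others 25.6 to 27.3) and BCL2A1 (0 RPKM, others 0.183 to 0.207). The library DMSO replicate 1 of experiment 1 stood apart for SERTAD1 (12.2 RPKM, others 6.56 to 7.28). The library I-BET151 replicate 2 of experiment 1 stood apart for ETV6 (6.48 RPKM, others 5.27 to 5.42).

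The change of SNORD27 after I-BET151 was 3.09 in experiment 1 and -0.95 in experiment 2 on the log2(RPKM + 1) scale. The difference of -4.03 passed its test (limma, adjusted p = 0.00905), as the 1 gene that did. The DMSO libraries of experiment 1 were listed at 0 for it.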

How the results depend on the processing

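The count of 2999 genes was 3001 and 3010 at smaller pseudocounts, 2901 with no filter, 2307 at a filter of 5 RPKM, 2995 after median ratio scaling, 3029 after quantile normalization, 4204 with GC trends removed, 2617 with no experiment term and 2994 on recovered reads (limma voom). Leaving out 1 library gave 2410 to 3187 calls, with 898 to 1351 higher and 1501 to 1896 lower. Counts that moved by more than 1.5 times came from 3 alternatives. With the GC trend of each library removed, 1997 genes were higher. With the 8 libraries alone, 1532 were called, 518 higher and 1014 lower, of which 1522 were among the 2999, with fewer samples to estimate the spread. Experiment 2 alone gave 456, with 93 higher and 363 lower, of which 452 were among the 2999. The share of calls that were higher, 39.3%, was 47.5% with the GC trends removed and 20.4% in experiment 2 alone. Among the called genes of the text, 85 were not called in experiment 2 alone, 31 in the 8 libraries and 9 after the 3 libraries of steep GC slope were left out. The test between experiments gave 0 calls on recovered reads and 0 to 2 when 1 library was left out. The test against JQ1 gave 1 call each with only the libraries compared, in experiment 1 alone, with replicates averaged and after leaving out the libraries of steep GC slope. The cause of these shifts was not tested.

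Whether equal replicate numbers mark paired libraries was checked by the correlation of deviations across genes, which within experiments was 0.018 in experiment 1 and 0.697 in experiment 2. Taken from the means of whole groups, which leaves the difference between experiments in, it was 0.301, 0.144, 0.689 and 0.487 in the 4 same-numbered sets. Since the experiment is a term of the fit, the values within experiments were used. Equal numbers went together in experiment 2 but not in experiment 1. The numbers were not taken as pairs in the main fit, which leaves what equal numbers shared in experiment 2 out of its terms. With the replicate block the count was 2883, and 8 of the called genes of the text were not called, BID, HDAC9, HLA-DQB1, HOTTIP, MRPL53, MRPS14, NPM1 and PSPH, with adjusted p of 0.0522 to 0.0677.

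The reversals of sign concerned genes that did not pass the test. In experiment 1 alone, the values were -0.0114 for CCNT1, 0.11 for LMO2, -0.12 for NOTCH1, 0.055 for MKI67 and 0.19 for CCNB1. In experiment 2 alone, the values were -0.075 for BRD3, 0.00412 for CDK6, 0.0928 for EZH1, 0.14 for TYMS and -0.95 for SNORD27. After quantile normalization, the values were 0.00492 for EZH1, 0.037 for LMO2, 0.00366 for TYMS and 0.0156 for CCNB1. After median ratio scaling, the values were 0.0149 for LMO2, 0.0119 for TYMS and 0.0233 for CCNB1. With the GC trends removed, the values were 0.021 for EZH1, 0.0767 for LMO2, 0.052 for TYMS and 0.0348 for MKI67. With the 3 libraries of steep GC slope left out, the values were -0.00489 for CCNT1, 0.000901 for EZH1, -0.0641 for NOTCH1, 0.0248 for MKI67 and 0.15 for CCNB1. When 1 library was left out, the values ranged as follows, for BRD3 -0.0256 to 0.10, for CCNT1 -0.16 to 0.24, for CDKN1B -0.50 to 0.00649, for EZH1 -0.19 to 0.0365, for LMO2 -0.0928 to 0.11, for NOTCH1 -0.0286 to 0.12, for TYMS -0.19 to 0.0626, for MKI67 -0.0547 to 0.0461 and for CCNB1 -0.0608 to 0.12.

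The 20 named genes that lost the call without 1 library had their highest adjusted p as follows. Without DMSO replicate 1 of experiment 2 it was BAG3 at 0.155, NCL at 0.0803, NPM1 at 0.0862 and TRIAP1 at 0.0952. Without DMSO replicate 2 of experiment 2 it was BID at 0.14, CCND3 at 0.0655, MED14 at 0.0545, PSPH at 0.131 and UBE2C at 0.0837. Without I-BET151 replicate 1 of experiment 2 it was CD4 at 0.0861, ITGAV at 0.111 and MRPS14 at 0.152. Without I-BET151 replicate 2 of experiment 1 it was ESPL1 at 0.0912, HEXIM2 at 0.0925, HLA-DQB1 at 0.15 and HOTTIP at 0.15. Without I-BET151 replicate 2 of experiment 2 it was HDAC9 at 0.117. Without I-BET151 replicate 1 of experiment 1 it was MRPL53 at 0.146. Without DMSO replicate 2 of experiment 1 it was PTPRC at 0.0562 and SLC2A3 at 0.0683.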

Other observations

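Some families outside the lists were chosen after their values were seen, and their counts are given as a description. In the HOXB cluster of homeobox genes, 5 of 8 tested genes rose and none fell, with a median log2 change of 0.58. HOXB9 went from 7.28, 8.47, 6.46 and 8.44 RPKM under DMSO to 15, 15.1, 7.65 and 11.4 RPKM under I-BET151, and HOXB3 rose by 1.17 (SE 0.24). All 4 tested GIMAP genes, which encode small GTPases of lymphocytes, fell, with a median of -0.82. GIMAP7 went from 30.2 ± 3.88 to 13.2 ± 1.34 RPKM. Among 10 tested regulators of G-protein signalling, 6 fell and RGS2 rose, and RGS18 went from 17.5 ± 3.4 to 4.38 ± 2.07 RPKM. Both chains of the interleukin-18 receptor fell, with IL18R1 going from 9.37, 10.6, 13.6 and 11.7 RPKM to 2.17, 4.47, 3.47 and 2.77 RPKM.

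Lysosome and iron storage genes moved as well. Of 10 tested cathepsins, the proteases of lysosomes and granules, 6 fell and 1 rose, with CTSH going from 70.3 ± 2.76 to 15.7 ± 5.24 RPKM. Of 19 tested subunits and partners of the vacuolar ATPase, which acidifies lysosomes, 4 rose and none fell, with ATP6AP2 going from 156 ± 9.998 to 277 ± 103 RPKM. The ferritin chains FTH1 and FTL rose by 0.59 (SE 0.11) and 0.46 (SE 0.12). In the antiproliferative BTG family, 2 of 3 genes rose and 1 fell, with log2 changes of 1.1 for BTG1, 0.94 for BTG2 and -0.81 for BTG3.

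A set of 12 genes fell from a mean of at least 5 RPKM to under 1. Of these, 9 met both limits with I-BET151 replicate 2 of experiment 1 left out of the means, and 11 or 12 with any other library left out (a check chosen after seeing the data). The set holds PDLIM1, KCNQ1, ACY3, CD9, LINC00675, CEACAM1, IL4I1, MB, CPA3, GLDC, SPINK4 and CXCR3. The mast cell carboxypeptidase CPA3 went from 4.14, 2.99, 9.48 and 6.32 RPKM to 0.543, 0.232, 2.15 and 0.612 RPKM and the chemokine receptor CXCR3 from 7.68, 6.23, 3.35 and 8.1 to 1.37, 0.838, 0.738 and 0.221 RPKM. In the other direction, 7 genes rose from under 1 RPKM to at least 3, including the reductase DHRS2 and EFR3B. With I-BET151 replicate 1 of experiment 2, a library of steep GC slope, left out of the means, 4 of the 7 remained, and RMRP and the transcription factor genes MAF and MYBL1 did not reach 3. MAF went from 0.685, 0.818, 1.24 and 0.842 RPKM to 1.62, 2.36, 5.06 and 3.12 RPKM and MYBL1 from 0.671, 0.56, 1.55 and 0.755 to 1.94, 2.86, 10.8 and 2.9 RPKM, with the third treated value the highest in both. DHRS2 went from 0.364, 0.23, 0.442 and 0.332 RPKM to 3.9, 4.17, 2.96 and 3.05 RPKM.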
